A study of Arabidopsis thaliana with 8 samples.

Results

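The xyloglucan endotransglucosylase/hydrolase (XTH) family of Arabidopsis thaliana, XTH1 to XTH33, was followed in stems of a fiber-wall mutant with and without an activating transgene. The 33 members were taken by locus, and each had at least 1 probe on the array, among 25410 loci that could be matched. Detection on at least 4 of the 8 arrays, meaning a signal well above background, was met by 27 members, which were tested among 19609 genes. All 27 but XTH20 were above background on at least 3 arrays of each group. XTH1, XTH2, XTH3, XTH11, XTH14 and XTH25 were too dim to test.

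RNA came from stems 10 cm long of plants of accession Col-0, grown on soil at 23 °C in days of 16 h light and 8 h dark. The control group, called nst1 nst3 or control here, was the double mutant nst1-1 nst3-1 (n = 4 arrays). The transgenic group, CEF2-VP16 nst1 nst3, was the same double mutant carrying NST3pro:CEF2-VP16:HSP (n = 4 arrays). Both groups thus carry the nst1-1 and nst3-1 mutations, in genes for the NAC factors that switch on secondary walls in fibers. In the construct the NST3 promoter, active in fibers, drives an AP2/ERF factor joined to the viral VP16 activation domain. The sample labels call that factor CEF2 and the design text of the series calls it ERF035. Neither says how many transgenic lines or plants stand behind the 4 arrays, so the p-values rest on the spread among these arrays alone, and that spread may be technical. The comparison asks how the transcriptome of these stems differs with the transgene, and the whole stem was profiled, not the fibers alone.

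Xyloglucan is the main hemicellulose of primary walls in Arabidopsis and binds to cellulose microfibrils. XTH enzymes cut a xyloglucan chain and join the cut end to another chain (endotransglucosylase activity) or, in a few members, to water (hydrolase activity). They act in the wall while cells expand and in tissues that differentiate, and the genes differ widely in where they are used and in what induces them. The numbering follows the family tree, with XTH1 to XTH11 in group I, XTH12 to XTH26 in group II and XTH27 to XTH33 in group III. Some members respond to growth signals, many are known from roots, and XTH22 was found as TCH4, a gene induced by touch.

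The 75th percentile of the processed signal ran from 2344 to 3642 units over the 8 arrays. All control arrays lay on 1 slide and all transgenic arrays on another, with a scan each, so slide and genotype cannot be told apart. ERF035 (AT3G60490) read between -5.87 and -2.38 on the control arrays and between 4.05 and 4.27 on the transgenic arrays, so the factor was high in the group labelled as transgenic. NST1 and NST3 differed by -0.53 and -0.52 and did not pass, and since the place of their probes relative to the mutations is not known they do not check the genotype. All 5 xylem, 2 cambium, 3 phloem and 5 epidermis markers were detected, as in a stem. None of 3 root, 2 seed and 2 flower markers was above background on 4 or more arrays. The epidermis markers summed to 4.59 to 5.82 (log2) over the control arrays against 6.33 to 6.70 over the transgenic arrays. In the test 4 of these 5 were higher. Each sum adds signals over the 75th percentile before the log is taken, so the brightest markers weigh most, here CER1 and CUT1. The xylem markers summed to 2.92 to 3.79 against 4.0 to 4.32, with 5 of 5 higher. The cambium markers summed to 0.45 to 0.77 against 1.61 to 2.0, with 2 of 2 higher. The phloem markers summed to 4.18 to 4.20 against 4.06 to 4.39, with 1 higher and 1 lower. For comparison, 29.5% of all genes tested were called higher and 24.8% lower. Every control array read the floor for all root, seed and flower markers. Their part in the XTH results was not tested. In whole stems, more cells of a type and more RNA per cell cannot be told apart.

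With the transgene 12 of the 27 tested XTH genes were higher, 4 were lower and 11 did not pass (limma, Benjamini-Hochberg adjusted p under 0.05). The background is wide: 54.2% of all genes tested were called, 29.5% higher and 24.8% lower, against 44.4% higher and 14.8% lower among the tested XTH genes. XTH8, XTH31 and XTH4 were higher by at least 4 log2 units, a size reached by 0.525% of all genes, and XTH22 and XTH23 were lower by at least 2, a size reached by 3.48%. The median XTH difference was 1.26 on the log2 scale, against 0.03 over all genes. That median is the difference of XTH18, which did not pass, and the members ran from -3.97 to 6.28. With arrays scaled on the E1A spike-in probes, control RNA added before labelling, the median of all genes shifted from 0.03 to -0.39, and 11 XTH genes were called higher and 8 lower. On that scale 10.9% of all genes were higher and 40.0% lower. Each level below is the log2 ratio of a probe's signal to the 75th percentile of its array, listed for arrays 1 to 4 of each group; levels compare between arrays for 1 gene, not between genes. A difference is the transgenic mean minus the control mean on that scale.

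**Figure D1:**
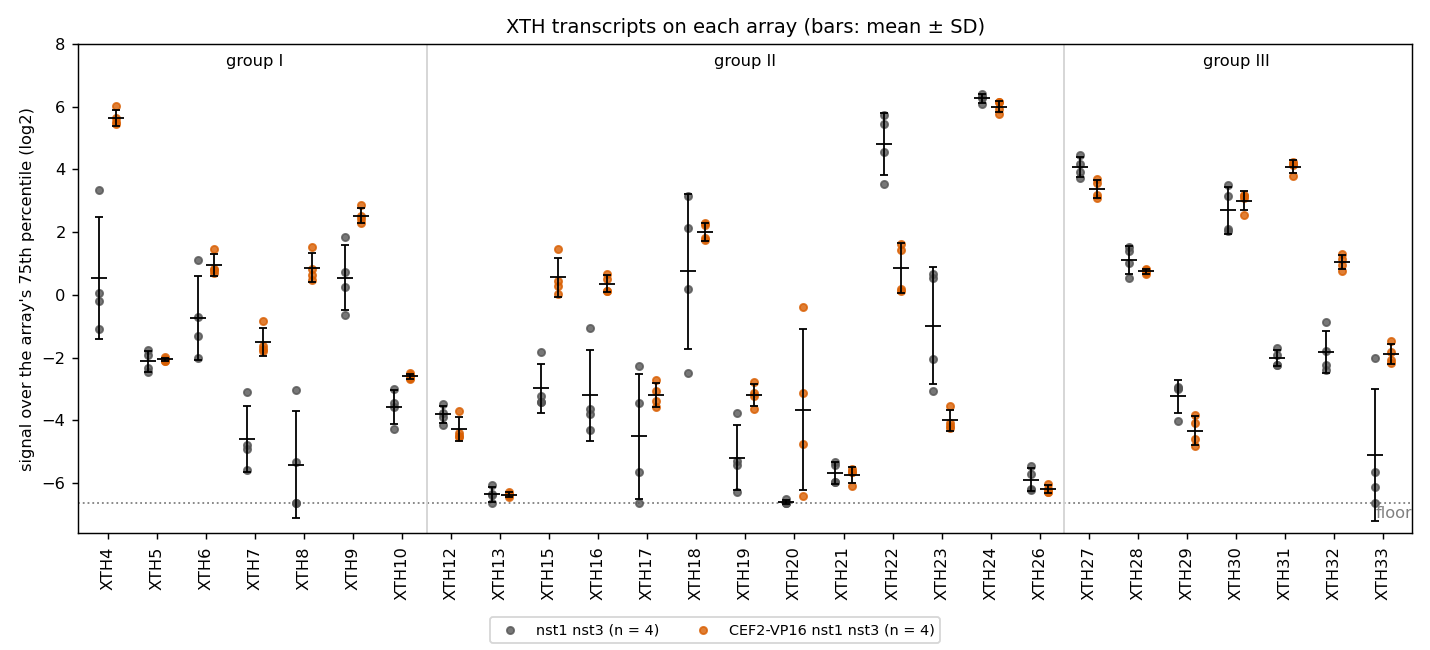
Level of each tested XTH gene on each array, as the log2 ratio of signal to the 75th percentile of its array, with 4 control arrays (grey) and 4 transgenic arrays (orange) per gene; bars are mean ± SD, grey vertical lines part the family groups and the dotted line is the floor of the scale at -6.64. The control arrays spread more than the transgenic ones in 24 of 27 genes, and XTH31 shows tight groups far apart.

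In group I 6 of the 7 tested genes (85.7%) were higher and none was lower, against 29.5% and 24.8% of all genes tested. The same 6 were positive with spike-in scaling, where XTH6 and XTH10 no longer passed. There 10.9% of all genes were higher and 40% lower. XTH8 (AT1G11545) read -6.64, -3.04, -6.64 and -5.33 in nst1 nst3, where 3 of 4 arrays were above background, and 1.52, 0.48, 0.63 and 0.84 with the transgene. The groups did not overlap, but control arrays 1 and 3 were at the floor of the scale, so the rise of 6.28 ± 0.76 (SE, n = 4 per group), or 77.8-fold, is limited by that floor and was 6.5 with a floor of 0.001. The limma adjusted p was 0.000393. Without control array 2 the rise was 7.07, and it was 5.07 after normexp background correction.

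XTH4 (AT2G06850), also known as EXGT-A1 and among the first endotransglucosylases described, read -0.18, 3.36, -1.07 and 0.07 on the control arrays. The transgenic arrays read 5.64, 5.51, 5.44 and 6.01. Control array 2 stood closest to the transgenic arrays, and all 4 transgenic arrays lay above it. XTH4 was 5.11 ± 0.85 higher (SE, n = 4 per group; limma adjusted p = 0.00162), or 34.4-fold, and 6.04 without control array 2. The second XTH4 probe gave 5.21.

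XTH7 (AT4G37800) read -4.90, -3.08, -5.59 and -4.80 in nst1 nst3 and -1.71, -1.64, -1.80 and -0.83 with the transgene. The groups did not overlap, and the rise was 3.1 ± 0.50 (limma adjusted p = 0.00147), or 2.47 after normexp correction. XTH9 (AT4G03210), known from shoot apices and elongating internodes, read 0.73, 1.85, 0.26 and -0.63 in the controls. Its transgenic arrays read 2.51, 2.30, 2.42 and 2.86, all above the controls, with a rise of 1.97 ± 0.46 (limma adjusted p = 0.00806). The second XTH9 probe gave 2.01.

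Smaller changes were seen in XTH10 and XTH6. XTH10 (AT2G14620) read -3.57, -2.99, -4.28 and -3.45 in nst1 nst3 and -2.56, -2.65, -2.68 and -2.49 with the transgene. The groups did not overlap and XTH10 was 0.98 ± 0.24 higher (limma adjusted p = 0.00989), but with spike-in scaling the difference was 0.54 and did not pass. XTH6 (AT5G65730) read -1.31, 1.13, -0.71 and -2.0 in nst1 nst3 and 0.82, 0.70, 0.80 and 1.48 with the transgene. Control array 2 lay within the transgenic range. The XTH6 difference was 1.67 ± 0.60 (limma adjusted p = 0.0459). Leaving out 1 array ended that call in 7 of 8 cases, the exception being control array 2, without which it was 2.29. XTH5 was the tested member of group I that did not pass.

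**Figure D2:**
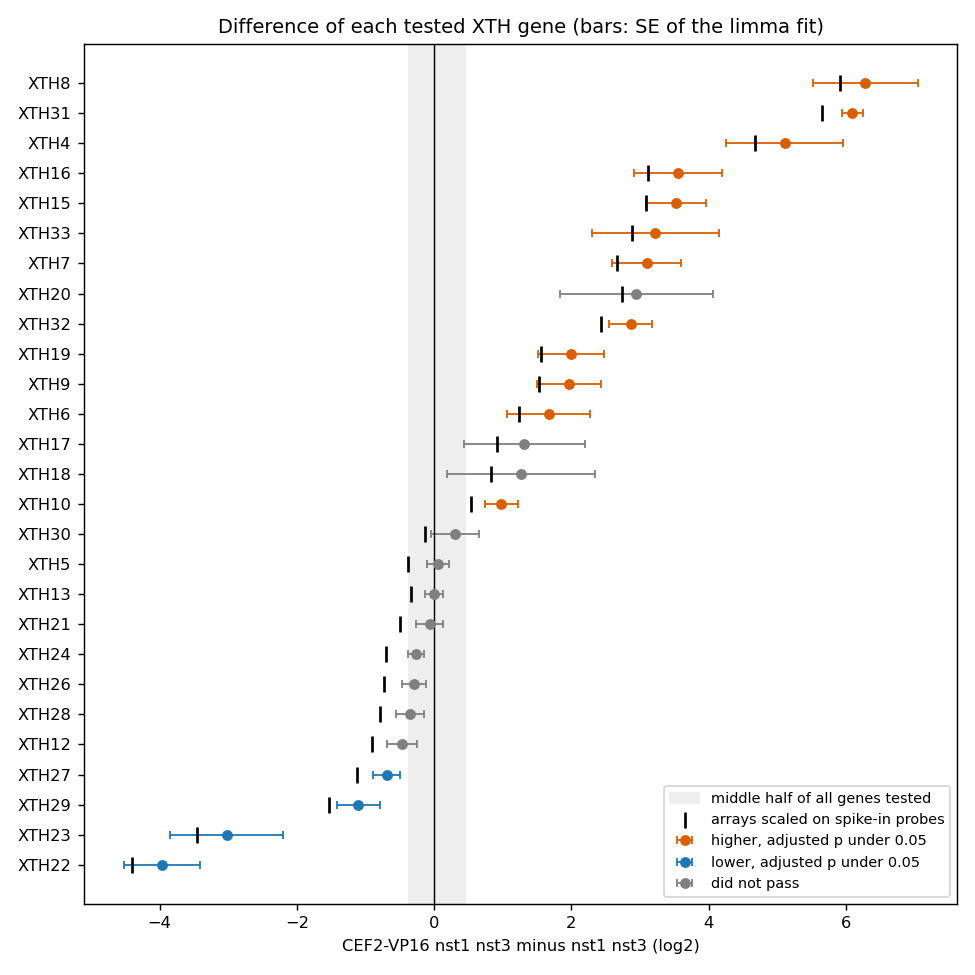
Difference between transgenic and control stems for the 27 tested XTH genes, on the log2 scale, ordered by size, with the SE of the limma fit (n = 4 per group); colours give the call, black ticks the difference with spike-in scaling and the grey band the middle 50% of all genes tested, from -0.37 to 0.45. XTH8, XTH31 and XTH4 lie above 5 and XTH22 and XTH23 below -3.

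Group II was mixed, with 3 of 13 tested genes higher, 2 lower and 8 not passing. That is 23.1% higher and 15.4% lower, both below the 29.5% and 24.8% of all genes tested. Among the higher ones were XTH15 and XTH16, members known from petiole elongation in shade. XTH15 (AT4G14130) read -3.23, -1.81, -3.42 and -3.42 in nst1 nst3 and 0.46, 0.29, 0.03 and 1.45 with the transgene. XTH16 (AT3G23730) read -3.64, -1.05, -4.29 and -3.80 in nst1 nst3 and 0.67, 0.12, 0.14 and 0.51 with the transgene. Neither gene's groups overlapped. XTH15 was 3.53 ± 0.44 higher (limma adjusted p = 0.000415) and XTH16 3.55 ± 0.64 (0.00241), or 4.27 without control array 2. A dimmer XTH15 probe, above background on 5 arrays, gave 3.02.

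XTH19 (AT4G30290), known from roots and from the healing of cut stems, was the third. It read -5.41, -3.75, -6.27 and -5.30 in nst1 nst3 and -2.78, -3.14, -3.21 and -3.64 with the transgene. The lowest transgenic array lay just above the highest control array. The rise was 1.99 ± 0.48 (SE, n = 4 per group; limma adjusted p = 0.0091).

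XTH20 (AT5G48070), like XTH19 known from roots and from cut stems, was above background on 1 control array and 3 transgenic arrays. It read -6.64, -6.51, -6.64 and -6.64 in nst1 nst3 and -3.12, -6.40, -4.75 and -0.38 with the transgene. The transgenic arrays all lay above the controls but lay far apart from each other, and the difference of 2.95 ± 1.11 did not pass (limma adjusted p = 0.0535). It passed in 6 alternatives, among them the authors' value table (4.52), a lower floor (4.5), spike-in scaling (2.73) and the fit without transgenic array 2 (3.86), and it was 1.85 without transgenic array 4.

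The touch list held XTH22, XTH23 and XTH25, and both members bright enough to test were lower. So were 24.8% of all genes tested, or 40% with spike-in scaling. XTH22 (AT5G57560, TCH4) read 5.72, 5.45, 3.52 and 4.55 on the control arrays. The transgenic arrays read 0.20, 1.63, 0.11 and 1.44. All control arrays stood above all transgenic arrays, with the lowest control value on array 3. The difference was -3.97 ± 0.56 (SE, n = 4 per group; limma adjusted p = 0.000736), or 15.6-fold lower.

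XTH23 (AT4G25810) read 0.67, 0.54, -3.07 and -2.05 in nst1 nst3 and -4.17, -4.07, -4.23 and -3.53 with the transgene. Control arrays 1 and 2 were high and control arrays 3 and 4 lower, and all of them lay above the transgenic arrays. The difference was -3.02 ± 0.82 (limma adjusted p = 0.0153), and -3.72 without control array 3. XTH25 (AT5G57550) was above background on control array 1 alone, at -5.46, and read -6.64, the floor, on the other 7 arrays.

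**Figure D3:**
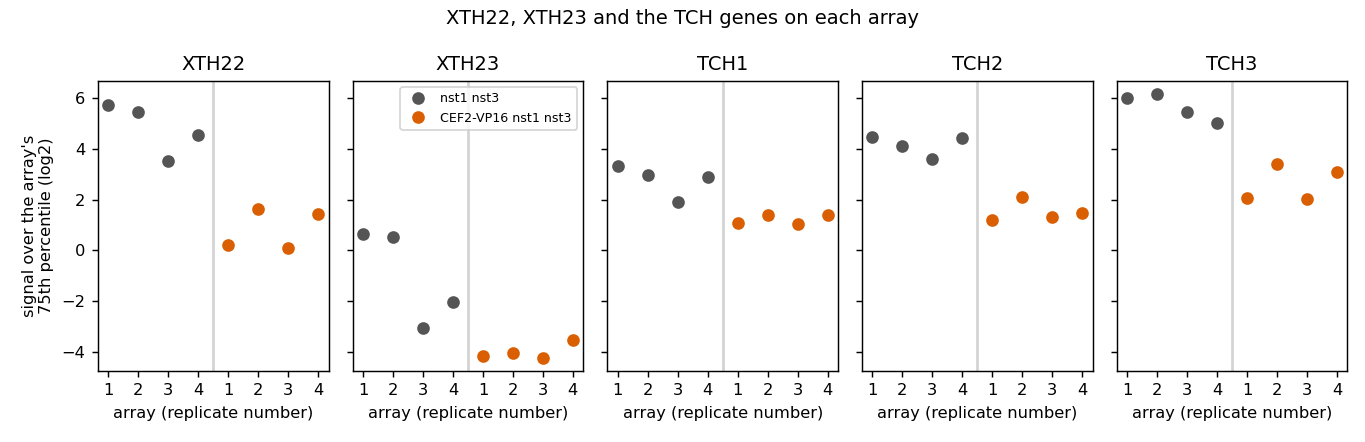
Level of XTH22, XTH23, TCH1, TCH2 and TCH3 on each of the 8 arrays, as the log2 ratio of signal to the 75th percentile of its array, with control arrays in grey and transgenic arrays in orange by replicate number. In all 5 genes every control array lies above every transgenic array.

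The other TCH genes, which encode calmodulin and calmodulin-like calcium sensors and were found by their induction by touch, were lower as well. TCH3 (AT2G41100) read 6.01, 6.17, 5.45 and 5.03 in nst1 nst3 and 2.06, 3.43, 2.04 and 3.09 with the transgene. TCH2 (AT5G37770) read 4.49, 4.12, 3.62 and 4.45 in nst1 nst3 and 1.18, 2.10, 1.32 and 1.49 with the transgene. TCH1 (AT2G41110) read 3.32, 2.99, 1.91 and 2.90 in nst1 nst3 and 1.1, 1.40, 1.03 and 1.40 with the transgene. No group overlapped in any of them. Of all genes tested 24.8% were called lower, and in 22.7% every transgenic array lay below every control. The differences were -3.01 ± 0.39 for TCH3, -2.65 ± 0.25 for TCH2 and -1.55 ± 0.28 for TCH1 (limma adjusted p = 0.000497, 0.000156 and 0.00252). All 3 were called lower with spike-in scaling too, where 40% of all genes were lower. How the plants were handled before harvest is not given in the labels, and its part in these differences was not tested.

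The growth list held XTH4, XTH5, XTH9, XTH15, XTH16, XTH24 and XTH31, members known from expanding or meristematic tissue. Of these 7, 5 were higher and none lower, with a median of 3.53. XTH24 (AT4G30270, MERI5), known from meristems, did not pass. It read 6.32, 6.42, 6.27 and 6.07 in nst1 nst3 and 5.78, 6.16, 5.94 and 6.14 with the transgene, a difference of -0.27 ± 0.12 (limma adjusted p = 0.0859). Its 5 probes gave -0.31 to -0.19, and it was called lower with quantile normalization (-0.54) and spike-in scaling (-0.70). The growth and touch lists were thus called in opposite directions, 5 of 7 higher and 2 of 2 tested lower, under the 75th percentile. Of the 9 tested members outside the growth, touch, root and reproductive lists, 6 were higher and 2 lower. A rise was therefore not particular to the growth list. Over all genes tested 29.5% were higher and 24.8% lower. With spike-in scaling the same 5 growth genes were higher and XTH24 was lower.

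Most root-associated members did not pass: XTH12, XTH13, XTH17, XTH18, XTH20, XTH21 and XTH26, against XTH19. That is 12.5% higher and none lower, against 29.5% and 24.8% of all genes tested. With spike-in scaling XTH20 was also called higher, and XTH12 and XTH26 were called lower. XTH18 (AT4G30280) had wide control values, 2.13, 3.16, -2.48 and 0.19, which enclosed the transgenic values of 1.74, 2.29, 1.80 and 2.22. Its difference of 1.26 ± 1.08 (limma adjusted p = 0.352) was 2.07 without control array 2 and 0.19 without control array 3. XTH17 (AT1G65310) also had a wide control group, with 1 array at the floor and control values of -3.44, -2.28, -6.64 and -5.65 and transgenic values of -3.39, -3.08, -3.59 and -2.70. Its difference of 1.31 ± 0.88 (limma adjusted p = 0.24) was 1.6 with a floor of 0.001. It was 2.06 and passed without control array 2, and was 0.60 without control array 3.

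Some group II genes are neighbours on their chromosome, and 8 of the 15 lie next to another member. In the gene table XTH24, XTH18 and XTH19 follow each other without another protein-coding gene between them, and of the 3 only XTH19 passed under the 75th percentile. XTH22 neighbours XTH25, which neighbours XTH13; XTH22 was lower, XTH13 did not pass and XTH25 was too dim to test. XTH23 neighbours XTH14, which lay at the floor on all 8 arrays. Whether probes of such neighbours read each other's transcripts was not tested.

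Group III had 3 of 7 tested genes higher, 2 lower and 2 not passing. That is 42.9% higher and 28.6% lower, against 29.5% and 24.8% of all genes tested. XTH31 (AT3G44990), of the subgroup with xyloglucan hydrolase activity, read -1.92, -1.70, -2.22 and -2.22 on the control arrays. The transgenic arrays read 4.17, 3.78, 4.24 and 4.13. Both groups were tight, and they lay far apart. The difference was 6.09 ± 0.15 (SE, n = 4 per group; limma adjusted p = 1.35e-06), or 68.3-fold, and ranked 2 by p-value and 12 by size of rise among the 19609 genes. It ran from 6.03 to 6.20 in the 8 fits without 1 array.

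XTH32 (AT2G36870), the relative of XTH31 in that subgroup, read -1.79, -0.87, -2.40 and -2.22 in nst1 nst3 and 1.15, 0.76, 0.97 and 1.29 with the transgene. The groups did not overlap, and the rise was 2.86 ± 0.32 (limma adjusted p = 0.000269). XTH33 (AT1G10550), an XTH placed at the plasma membrane, read -5.65, -2.02, -6.11 and -6.64 in nst1 nst3, where 3 of 4 arrays were above background, and -1.81, -2.08, -2.17 and -1.46 with the transgene. Control array 2 lay within the transgenic range while the other 3 controls were far below it. The rise was 3.22 ± 0.92 (limma adjusted p = 0.0185), 4.25 without control array 2 and 2.54 after normexp correction.

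Of the 2 lower genes of group III, XTH27 (AT2G01850, EXGT-A3) is known from developing vessel elements of leaf veins. It read 4.16, 4.47, 3.93 and 3.73 in nst1 nst3 and 3.08, 3.56, 3.19 and 3.69 with the transgene. The groups did not overlap, by a narrow margin. The difference was -0.69 ± 0.20 (limma adjusted p = 0.0179), and a second probe gave -0.66, but the call was lost without transgenic array 3 (-0.63, adjusted p = 0.0515).

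XTH29 (AT4G18990) read -2.97, -4.01, -3.01 and -2.93 in nst1 nst3 and -4.60, -3.82, -4.07 and -4.83 with the transgene. Control array 2 lay among the transgenic arrays. The difference was -1.1 ± 0.31 (limma adjusted p = 0.017). XTH28, known from stamen filaments, and XTH30 did not pass.

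In the exact permutation test 14 of the 27 tested genes had groups that did not overlap, 11 higher and 3 lower. Over all genes tested the groups lay apart in 50.7%, with 27.9% higher and 22.7% lower. For each of the 14 the two-sided p was 0.0286, the smallest that 4 arrays against 4 can give. XTH6, XTH33 and XTH29, called in the limma fit, had overlapping groups and exact p = 0.114, 0.0857 and 0.0571. XTH20, not called in the limma fit, was among the 14. Its lowest transgenic array read -6.40 and its highest control array -6.51, both next to the floor of -6.64.

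The 11 tested genes that did not pass differed by -0.47 to 2.95, with adjusted p from 0.0535 to 0.984. Among the 6 untested ones XTH1, XTH3 and XTH14 were above background on no array, and the other 3 on at most 2 of 8.

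The control arrays varied more than the transgenic arrays, and in a pattern over the called members. The median SD of a tested XTH gene was 0.74 in nst1 nst3 and 0.29 with the transgene, against 0.21 and 0.13 over all genes. In all 12 higher members control array 2 was the highest control, by 0.42 (XTH31) to 4.12 (XTH33) log2 units over the mean of the other 3. Among all genes called higher in the transgenic stems control array 2 was the highest control in 56.9%. Control array 3 was the lowest control for 8 of the 12, and for XTH8 it shared the floor with control array 1. The matching share over all genes called higher is not given here. Among all genes called lower control array 2 was the lowest control, and so the closest to the transgenic arrays, in 46.4%, and control array 3 in 30.7%. Of the 4 lower members control array 2 was the lowest for XTH29 alone. For XTH22 and XTH23 control array 2 was not the closest to the transgenic arrays, at 0.86 and 2.02 above the mean of the other 3 controls. Without control array 2 the median XTH difference was 2.06, and 13 genes were higher and 5 lower. Without control array 3 it was 0.60, with 11 higher and 4 lower. Both of these medians are the difference of XTH17, which did not pass over all 8 arrays.

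**Figure D4:**
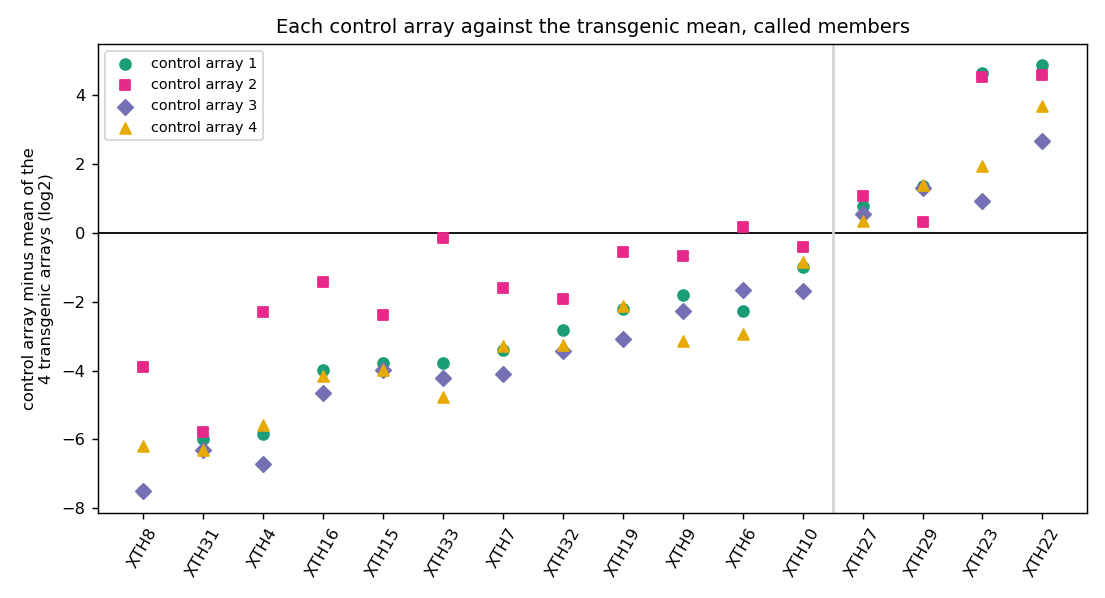
Each control array minus the mean of the 4 transgenic arrays, on the log2 scale, for the 12 XTH genes called higher (left of the line) and the 4 called lower (right); 0 is the transgenic mean and symbols mark control arrays 1 to 4. Control array 2 (pink squares) is the closest to 0 in all 12 higher genes, and for XTH6 it lies above 0. For XTH22 and XTH23 control array 3 is the closest to 0.

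The genes that make and trim xyloglucan, the substrate of XTH enzymes, moved in both directions. Of 19 listed genes 18 were tested, and 9 were higher, 3 lower and 6 did not pass, with a median of 0.56. That is 50% higher and 16.7% lower, against 29.5% and 24.8% of all genes tested. With spike-in scaling 6 of the 18 were higher and 5 lower, against 10.9% and 40.0% of all genes. Both trimming genes that passed were higher, by 3.22 ± 0.29 for BGAL10 (AT5G63810), a beta-galactosidase, and 2.30 ± 0.22 for XYL1 (AT1G68560), an alpha-xylosidase (SE, n = 4 per group; limma adjusted p = 0.000123 and 0.000149). The list of trimming genes held 3 in all.

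Among genes for the glucan backbone CSLC5 (AT4G31590), CSLC8 (AT2G24630) and CSLC6 (AT3G07330) were higher by 1.69 ± 0.19, 1.42 ± 0.13 and 0.71 ± 0.10 (limma adjusted p = 0.00026, 0.000115 and 0.000823), the last not with spike-in scaling (0.28). CSLC4 and CSLC12 did not pass.

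The xylosyltransferases, which add xylose to the backbone, split. XXT1 (AT3G62720) read 4.15, 3.56, 1.47 and 3.05 in nst1 nst3 and 0.42, 0.47, 0.07 and 0.69 with the transgene, with no overlap and a difference of -2.65 ± 0.51 (limma adjusted p = 0.00331). XXT2 (AT4G02500) read 0.95, 1.34, 0.77 and 0.78 in nst1 nst3 and 2.41, 2.12, 2.25 and 2.39 with the transgene, a rise of 1.33 ± 0.14 (limma adjusted p = 0.000226). XXT3 (AT5G07720) rose by 1.90 ± 0.27 (0.000717). XXT4 (AT1G18690) differed by -0.34 ± 0.12 (limma adjusted p = 0.0491), and lost that call in 13 alternatives. Control array 3 had the lowest control value of XXT1, as it had in 30.7% of all genes called lower.

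Of the 6 listed genes for side chains and their acetylation 5 were tested, with 2 higher and 1 lower. FUT1 (AT2G03220), a fucosyltransferase, and MUR3 (AT2G20370), a galactosyltransferase, were higher by 0.70 ± 0.08 and 0.60 ± 0.10 (limma adjusted p = 0.000272 and 0.00197), neither with spike-in scaling (0.27 and 0.16). AXY4L (AT3G28150), a relative of the xyloglucan acetylation gene AXY4, differed by -0.74 ± 0.16 (limma adjusted p = 0.00531) and missed the threshold after normexp correction.

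**Figure D5:**
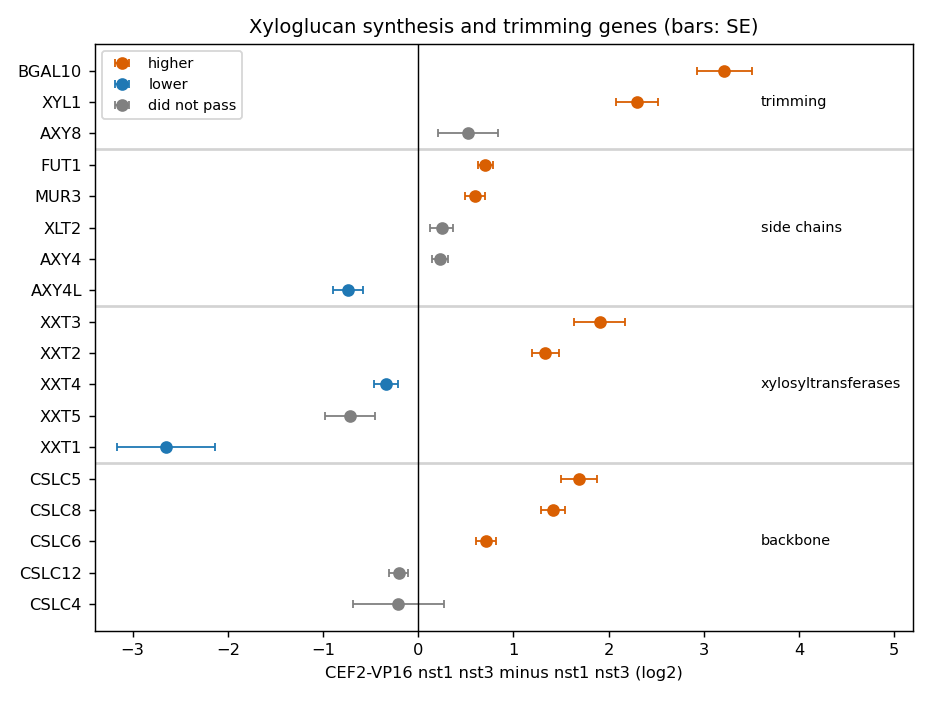
Difference between transgenic and control stems for the 18 tested genes of xyloglucan synthesis and trimming, on the log2 scale with the SE of the limma fit (n = 4 per group), grouped by step and coloured by call. BGAL10 has the largest rise, at 3.22, and XXT1 the largest fall, at -2.65.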

How the data were processed

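The authors deposited scanner intensity values, made with Agilent Feature Extraction 11.5.1.1 per the file headers, which also name a TAIR10 grid. Version 9.1.3.1 stands in the submitters' processing notes, and the difference could not be settled. The deposited processed signal is a linear, background-corrected intensity. The authors' deposited value table holds natural log values, and its column medians run from -1.26 to -0.84. The log of the processed signal less the column's value had a median of 7.39 (control arrays) or 7.15 (transgenic arrays). Single probes departed from that median by up to 1.48 (control arrays) and 3.53 (transgenic arrays). The sources used here do not give how those offsets were chosen. The table served as an alternative.

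The values analysed here are log2 of the processed signal over the array's 75th percentile, with a floor at 0.01 of it set after scaling. Control spots and outlier spots were left out, unless all spots of a probe were marked. A probe was tested if well above background on at least 4 of 8 arrays, and the brightest such probe stood for a gene. RefSeq accessions were matched without versions to a gene table of assembly TAIR10.1: 34348 of 43603 probes matched 25410 loci, and 19609 genes were tested. Groups were compared over all these genes with limma 3.58.1 in R 4.3.3 (lmFit, eBayes, no covariates, Benjamini-Hochberg adjustment), and each member also by exact permutation, two-sided, over all 70 ways to assign 8 arrays to groups of 4. The fit was tested on simulated data.

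The members, the gene lists and the tests were chosen with earlier results of these data known. Values in every array are given for each member that passed and for the touch list; XTH17, XTH18, XTH20 and XTH24 are given beside them, chosen after their values were seen, and the other members appear by symbol, range and count. Up to 4 passing genes of each other xyloglucan list and all 3 TCH genes are named. Alternatives changed the background correction (normexp, offset 50, on median signals), the scaling (median, quantile, E1A spike-in probes), the source of values, the filter, the floor (0.001), the handling of several probes, the test settings, the threshold (0.01), the replicate block and the arrays included. The replicate numbers of the 2 groups were checked for pairing. No probe sequence was used here, so hybridisation of near-identical XTH transcripts to each other's probes was not tested.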

Additional observations from a re-analysis of the deposited data

Results flagged for a closer look

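In 7 of the 54 groups of 4 arrays of tested XTH genes, 1 array lay far from the other 3, by a gap whose share of the group's range passed Dixon's critical value for 4 samples. Chance alone gives such a gap in about 1 of 20 groups. On transgenic array 4, XTH6 read 1.48, XTH7 -0.83 and XTH12 -3.69, above the other transgenic arrays, whose nearest values were 0.82, -1.64 and -4.40. On control array 2, XTH15 read -1.81 and XTH20 -6.51, above the other controls (nearest -3.23 and -6.64), and XTH29 read -4.01, below them (nearest -3.01). On transgenic array 1, XTH30 read 2.54, below the other transgenic arrays (nearest 3.09). For XTH20 the other 3 controls all lay at the floor, so that its gap is small in size.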

How the results depend on the processing

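The counts of higher XTH genes stayed between 10 and 13 in all alternatives run. Over the 8 fits without 1 array the higher count ran from 11 to 13, the lower count from 3 to 5 and the median XTH difference from 0.60 to 2.06. The lower count was 8 with spike-in scaling, which added XTH12, XTH24, XTH26 and XTH28, and 1 (XTH22) at an adjusted p under 0.01. The median fell to 0.30 with no filter on dim probes, where 33 members enter. The replicate numbers did not pair the arrays: deviations of same-numbered arrays correlated at -0.40 to 0.16. With the replicate number as a block 11 were higher and 3 lower, XTH6 (adjusted p = 0.0838) and XTH29 (0.0613) losing their calls. XTH8 and XTH33 do not enter when all 8 arrays must be above background, by construction. No alternative turned the sign for the 16 called members, XTH17, XTH18, XTH20 and XTH24, the passing xyloglucan genes named, the TCH genes, ERF035, NST1 or NST3. With spike-in scaling XTH5 (-0.38) and XTH30 (-0.14) turned negative without passing. The differences of the other members that did not pass were not followed through every alternative. Signal near the floor limits XTH8, XTH13, XTH17, XTH20 and XTH33, and 4 arrays per group limit the precision throughout.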
